A study of Mus musculus with 9 samples.

Results

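Cxcl12, Cxcr4 and Ackr3 form a small signalling axis of 1 ligand and 2 receptors, and all 3 were taken by name from the 47593 rows of a gene count table of mouse medulloblastomas. All 3 were among the 18356 genes with enough counts to be tested, and none was chosen here for its own difference between the groups. Whole tumours were compared in 2 groups, Cdk6-/- (n = 6) and Cdk6+/+ (n = 3). Every tumour of both groups arose on a C57BL/6J background from the Atoh1-cre transgene (Math1 is another name of Atoh1) and the SmoM2 allele at the Rosa26 locus, which makes a fluorescently tagged, always active Smoothened. Cre is made from an Atoh1 transgene, so active Smoothened is switched on in cells of the Atoh1 lineage, among them the granule neuron progenitors of the cerebellum, and not in the vessels, meninges or immune cells of the same piece of tissue. The labels give no age, do not say which mice the tumours came from, and do not say which part of Cdk6 was deleted. P-values therefore measure the spread between these samples, some of which could be technical.

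Cxcl12 is a secreted chemokine that draws cells along a gradient. In the developing cerebellum it is made by the meninges, and granule neuron progenitors that carry its receptor Cxcr4 are held beneath them while they divide. Cxcr4 signals through inhibitory G proteins. Ackr3, the atypical receptor for the same ligand, does not signal through G proteins in the usual way but binds, internalises and clears Cxcl12. Cxcr4 is a known marker of granule neuron progenitors and of a share of Hedgehog-driven medulloblastomas.

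The ligand and receptors are shown here by the part of the coding sequence that names their families, because the results rest on telling the 2 receptors apart by their reads. The bases are those of GENCODE M21 on GRCm38, in exon 2 of each gene, written along the gene's own strand. Capitals in Cxcl12 (chr6:117171484-117171540, plus strand) mark the codons of the CXC signature, a pair of cysteines with 1 residue between them. Capitals in Cxcr4 (chr1:128589476-128589544, minus strand) and Ackr3 (chr1:90214217-90214285, plus strand) mark the stretch that begins with the DRY motif, where the receptors of this class meet the G protein.
Cxcl12: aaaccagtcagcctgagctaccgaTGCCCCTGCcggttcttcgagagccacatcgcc
Cxcr4: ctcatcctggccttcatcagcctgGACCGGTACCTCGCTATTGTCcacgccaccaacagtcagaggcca
Ackr3: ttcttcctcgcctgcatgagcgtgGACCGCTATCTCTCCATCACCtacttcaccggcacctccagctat
The receptors' stretches in capitals have 21 bases each and differ at 7 of them. The reads were 50 bases long, and none of the 1805 windows of 50 bases in the Cxcr4 transcripts, the 3336 in Ackr3 or the 8216 in Cxcl12 occurred in a transcript of another gene. In the deposited table Cxcl12 lies on chromosome 6 at 117168535 to 117181367, Cxcr4 on chromosome 1 at 128588199 to 128592293 and Ackr3 on chromosome 1 at 90203980 to 90216751 (GRCm38). No other row overlaps any of them.

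Library totals were 21.4 to 34.5 x 1e6 counts in Cdk6-/- tumours and 39.4 to 56.8 x 1e6 in Cdk6+/+ tumours, so every Cdk6+/+ library was deeper. Cdk6 itself had 214, 562, 270, 464, 2.17 and 351 counts per 1e6 counts of the scaled library (CPM) in Cdk6-/- tumours 1 to 6, against 562, 551 and 562 CPM in Cdk6+/+ tumours 1 to 3. A count over the whole gene does not check a deletion whose place is not given. Cdk6-/- tumours 1 and 5 stood apart from the others. Tumour 5 had an Atoh1 level of 0.0442 CPM, where the median of the other 5 was 165 CPM, and its 5 markers of dividing cells summed to 0.752 CPM, against 1520 to 2231 CPM in the other Cdk6-/- tumours and 1842 to 2171 CPM in Cdk6+/+ tumours. Markers of mature granule neurons summed to 4232 CPM in tumour 1 and 5239 CPM in tumour 5, and to 275 to 584 CPM in the other Cdk6-/- tumours, against 393 to 694 CPM in Cdk6+/+ tumours. With almost no Atoh1 or dividing cell expression, the library labelled tumour 5 lacks the defining markers of a medulloblastoma of this model, and whether it holds tumour tissue was not tested. Its values below, Cxcr4 included, are those of a library so labelled. The comparisons of the 3 genes, their ratios and the pathway lists are therefore also given without tumours 1 and 5, a choice made with these values known. The groups also differed in sex-linked transcripts. Xist, made from the inactive X chromosome, had 131 CPM in Cdk6-/- tumour 1, 1757 CPM in tumour 6 and under 1 CPM in tumours 2 to 5, against 1583 to 2087 CPM in Cdk6+/+ tumours. The Y-linked Ddx3y had 57.6 to 145 CPM in Cdk6-/- tumours 2 to 5, 0.16 CPM in tumour 1 and 0 in tumour 6, against 0 in every Cdk6+/+ tumour. No tumour with Y-linked expression was in the Cdk6+/+ group, so sex and genotype are partly confounded, and with Y-linked expression as covariate 84 genes were called. In edgeR's quasi-likelihood test with Benjamini-Hochberg adjustment over all tested genes, 953 genes (5.19%) differed between the groups at an adjusted p under 0.05, with 507 (2.76%) higher and 446 (2.43%) lower in Cdk6-/- tumours. Leaving out tumours 1 and 5 gave 2643 of 18539 (14.3%), with 8.12% of all tested genes higher and 6.14% lower.

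None of the 3 genes passed the test of Cdk6-/- against Cdk6+/+ tumours. Cxcl12 was close to level in all 9 tumours, Cxcr4 was abundant in 8 and low in Cdk6-/- tumour 5, and Ackr3 was the scarcest and varied several-fold among Cdk6-/- tumours. In whole tumours, fewer cells of a type and less RNA per cell cannot be told apart.

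The ligand Cxcl12 had 41.2, 33.5, 34.8, 23.7, 44.5 and 39.5 CPM in Cdk6-/- tumours 1 to 6, against 35.1, 38.4 and 43.2 CPM in Cdk6+/+ tumours 1 to 3. The groups overlapped, with tumour 4 the lowest and tumour 5 the highest of all 9. The group means were 36.2 ± 7.36 CPM in Cdk6-/- and 38.9 ± 4.07 CPM in Cdk6+/+ tumours (SD, n = 6 and n = 3). The log2 fold change, Cdk6-/- minus Cdk6+/+, was -0.10 ± 0.24 (SE, edgeR adjusted p = 0.859), with a 95% interval of -0.64 to 0.43. Cxcl12 was also one of the steadier genes of the table. Its highest and lowest Cdk6-/- tumours differed 1.88-fold, and 10.2% of tested genes had a smaller SD of log2 CPM among Cdk6-/- tumours. Without tumours 1 and 5 the log2 fold change was -0.24 (edgeR adjusted p = 0.458, interval -0.71 to 0.23).

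The signalling receptor Cxcr4 had 74.3, 190.8, 134, 141, 4.60 and 177 CPM in Cdk6-/- tumours 1 to 6, against 172, 192 and 152 CPM in Cdk6+/+ tumours 1 to 3. Tumours 2 and 6 lay within the Cdk6+/+ range and the other 4 lay below it, tumour 5 far below. The 104 reads behind the value of tumour 5 gave a 95% exact binomial interval of 3.76 to 5.57 CPM. Like the other intervals of single tumours, it covers counting error only. Tumour 5 stood at 3.25% of the median of the other 5 Cdk6-/- tumours, 30.7-fold lower, and 234 tested genes (1.27%) were further down in tumour 5 by the same measure. Tumour 1 stood at 46.2% of the mean of tumours 2, 3, 4 and 6, which was 161 ± 27.4 CPM (SD, n = 4). Highest and lowest tumours differed 41.5-fold in Cdk6-/- and 1.27-fold in Cdk6+/+, and 96.2% of tested genes had a smaller SD of log2 CPM among Cdk6-/- tumours.

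Between the groups Cxcr4 averaged 120 ± 69.7 CPM in Cdk6-/- and 172 ± 20.4 CPM in Cdk6+/+ tumours (SD, n = 6 and n = 3). The log2 fold change was -0.52 ± 0.73 (SE, edgeR adjusted p = 0.758), with a 95% interval of -2.14 to 1.11. Leaving out tumour 5 alone brought it to -0.26 (edgeR adjusted p = 0.628, interval -0.89 to 0.38). Without tumours 1 and 5 it was -0.10 ± 0.19 (SE, edgeR adjusted p = 0.755), with an interval of -0.52 to 0.33. The negative value over all 9 tumours thus rested mostly on tumours 1 and 5.

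The scavenging receptor Ackr3 had 3.10, 5.60, 3.41, 13.2, 8.84 and 2.51 CPM in Cdk6-/- tumours 1 to 6, against 5.20, 7.42 and 7.62 CPM in Cdk6+/+ tumours 1 to 3. Cdk6-/- tumours lay on both sides of the Cdk6+/+ range, 3 below it and 2 above it. These are 56 to 321 reads per library in Cdk6-/- and 289 to 304 in Cdk6+/+, and the interval of tumour 6 (1.90 to 3.26 CPM) did not reach that of tumour 4 (11.8 to 14.8 CPM), so the spread exceeds counting error. Group means were 6.12 ± 4.19 CPM in Cdk6-/- and 6.75 ± 1.34 CPM in Cdk6+/+ tumours (SD, n = 6 and n = 3). The log2 fold change was -0.14 ± 0.54 (SE, edgeR adjusted p = 0.918), with a 95% interval of -1.33 to 1.05. Without tumours 1 and 5 it was -0.12 (edgeR adjusted p = 0.891, interval -1.29 to 1.04). With Y-linked expression as covariate it was -1.32 (edgeR adjusted p = 0.405, interval -2.68 to 0.051). Tumour 5, the lowest for Cxcr4, stood at 259% of the median of the other 5 for Ackr3 and at 128% for Cxcl12.

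**Figure D1:**
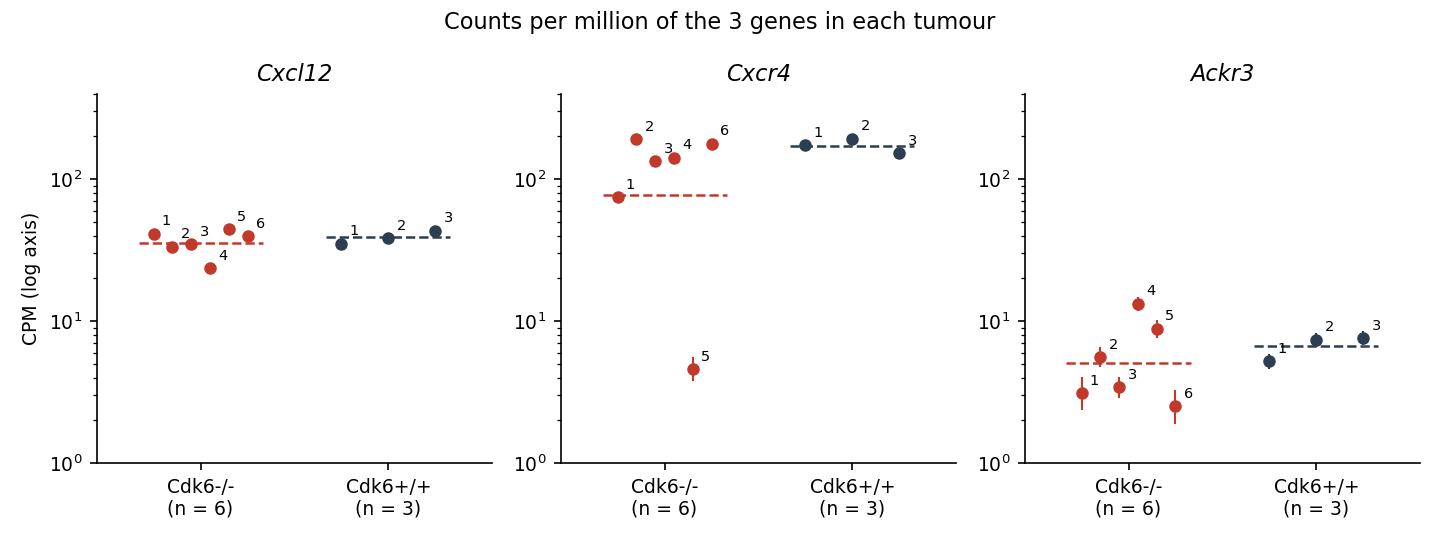
CPM (log axis) of Cxcl12, Cxcr4 and Ackr3 in each of the 6 Cdk6-/- and 3 Cdk6+/+ tumours, with tumour numbers beside the points. Vertical bars are 95% exact binomial intervals (counting error only) and dashed lines are means of the log values. Cxcl12 stays between 23.7 and 44.5 CPM, Cxcr4 drops to 4.60 CPM in Cdk6-/- tumour 5, and Ackr3 runs from 2.51 to 13.2 CPM among Cdk6-/- tumours.

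Set against each other per kilobase of exon, Cxcr4 was the most abundant of the 3 in 8 of 9 tumours. Levels averaged 66.6 ± 38.6, 4.43 ± 0.900 and 1.83 ± 1.25 CPM per kb for Cxcr4, Cxcl12 and Ackr3 in Cdk6-/- tumours (SD, n = 6). In Cdk6+/+ tumours they averaged 95.2 ± 11.3, 4.76 ± 0.498 and 2.02 ± 0.400 CPM per kb (SD, n = 3), with no overlap between the 3 genes. The order Cxcr4, Cxcl12, Ackr3 held in 7 of 9 tumours. The exceptions were Cdk6-/- tumour 4, where Ackr3 (3.95 CPM per kb) lay above Cxcl12 (2.90 CPM per kb), and tumour 5. There Cxcl12 came first with 5.44 CPM per kb, ahead of Ackr3 with 2.64 and Cxcr4 with 2.54 CPM per kb. The last pair did not differ beyond counting error. Before division by length, Cxcl12 (23.7 CPM) lay above Ackr3 (13.2 CPM) in tumour 4, so the order there rests on the deposited lengths.

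Among 25 genes for CXC chemokines, CX3C chemokines and their receptors, Cxcr4 had the highest level per kilobase in 7 of 9 tumours. It ranked 2 in Cdk6-/- tumour 1 and 7 in tumour 5. Cxcl12 ranked between 4 and 8 of the 25 in every tumour. Ackr3 ranked between 5 and 13. Set against all tested genes per kilobase, Cxcr4 lay at the 97.3 to 98.2 percentile in Cdk6-/- tumours 2, 3, 4 and 6, at 92.5 in tumour 1 and at 42.8 in tumour 5, against 96.9 to 98.0 in Cdk6+/+ tumours.

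The balance of receptor to ligand was compared within each library, where library size cancels. The log2 ratio of Cxcr4 to Cxcl12 per kilobase was 3.03, 4.69, 4.12, 4.75, -1.09 and 4.34 in Cdk6-/- tumours 1 to 6, against 4.47, 4.50 and 3.99 in Cdk6+/+ tumours 1 to 3. On the linear scale Cxcr4 exceeded Cxcl12 between 15.9-fold and 26.97-fold per kilobase in every tumour but Cdk6-/- tumours 1 and 5. There the ratios were 8.16 and 0.470. The size of these ratios rests on the deposited exon lengths, 1808 bases for Cxcr4 and 8176 for Cxcl12. Which transcripts were made was not tested. Mean log2 ratios were 3.31 ± 2.24 in Cdk6-/- and 4.32 ± 0.289 in Cdk6+/+ tumours (SD, n = 6 and n = 3), a difference of -1.01 (two-sided exact permutation test over 84 splits, p = 0.643, smallest possible p = 0.0238). The difference turned to 0.15 when tumours 1 and 5 were left out (exact permutation p = 0.514). With so few tumours left, the permutation test cannot give a p under 0.05.

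The log2 ratio of Ackr3 to Cxcl12 was -2.43, -1.29, -2.06, 0.45, -1.04 and -2.68 in Cdk6-/- tumours 1 to 6, against -1.46, -1.08 and -1.21 in Cdk6+/+ tumours 1 to 3. Tumour 4 was the one tumour with more Ackr3 than Cxcl12 per kilobase. Mean log2 ratios were -1.51 ± 1.15 in Cdk6-/- and -1.25 ± 0.195 in Cdk6+/+ tumours (SD, n = 6 and n = 3), a difference of -0.25 (exact permutation p = 0.762), and -0.14 without tumours 1 and 5 (exact permutation p = 0.914). Both tests together make 2 comparisons, and neither passed before adjustment.

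**Figure D2:**
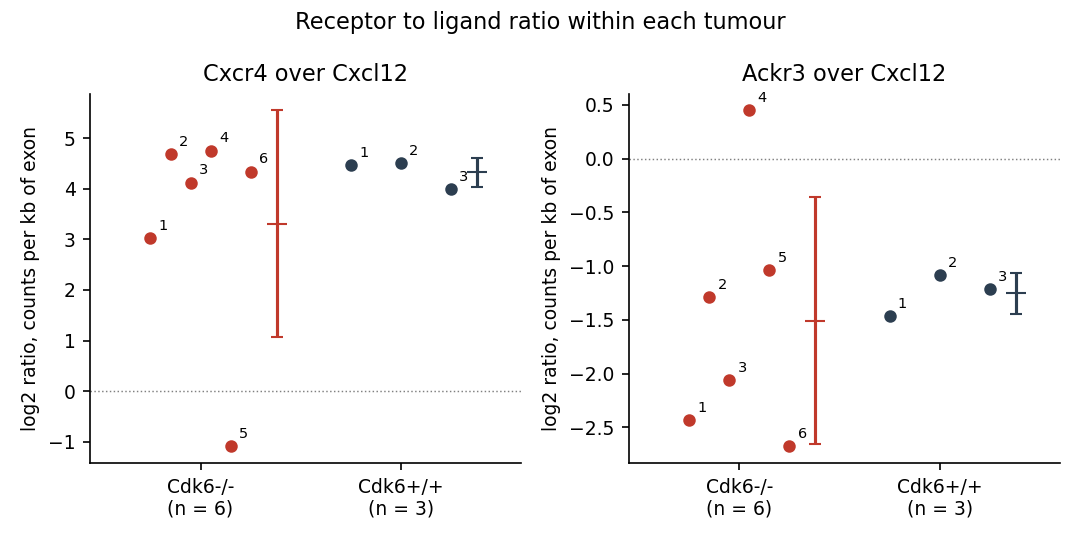
Log2 ratio of Cxcr4 to Cxcl12 and of Ackr3 to Cxcl12, both as counts per kb of exon, in each Cdk6-/- and Cdk6+/+ tumour, with the mean and SD beside each group and a dotted line at equal levels. Cdk6-/- tumour 5 (-1.09) is the one point below equality on the left, and tumour 4 (0.45) the one point above it on the right.

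Cxcr4 and the summed markers of dividing cells were both lowest in Cdk6-/- tumour 5. In tumour 1, the next lowest for Cxcr4, the dividing cell sum was 1775 CPM, within the range of the other Cdk6-/- tumours. The 8 progenitor markers summed to 2103, 4881, 3405, 3808, 929 and 4633 CPM in Cdk6-/- tumours, against 2662, 2936 and 2534 CPM in Cdk6+/+ tumours. Tumours 5 and 1, the lowest for Cxcr4, were the lowest for this sum too, and they had the highest mature granule neuron sums. In tumour 5, 858 of the 929 CPM were Ptch1 alone, and each other marker of the list was lowest there among Cdk6-/- tumours. Gli1, a direct Hedgehog target, had 22.0 CPM in tumour 5, or 9.74% of the median of the other 5 Cdk6-/- tumours. Ptch1, of the same list, was not low there. Its level was 858 CPM in tumour 5, against 685 to 1436 CPM in the other Cdk6-/- tumours and 663 to 814 CPM in Cdk6+/+ tumours. In tumour 5, markers of Purkinje cells summed to 8379 CPM, of astrocytes and Bergmann glia to 5653 CPM and of oligodendrocytes to 3446 CPM. The part of these cell types in the Cxcr4 level was not tested. Without tumours 1 and 5, 4 of the 8 progenitor markers (Atoh1, Barhl1, Gli1 and Gli2) were called higher in Cdk6-/- tumours by the edgeR test. Their log2 fold changes were 0.93 (Atoh1) to 1.501 (Gli1), and none was lower, where 8.12% of all tested genes were called higher. Tumours 1 and 5 were the lowest Cdk6-/- tumours for each of these 4 genes, so leaving them out raises that side. They were set aside with such marker values known, so this fit cannot decide whether the 4 genes differ by genotype. With both tumours kept, none of the 8 was called (smallest edgeR adjusted p = 0.527, Gli1). The Cxcr4 value without tumours 1 and 5 was the -0.10 given above.

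The 7 meningeal fibroblast markers summed to 245, 402, 210, 694, 238 and 102 CPM in Cdk6-/- tumours 1 to 6, against 235, 268 and 254 CPM in Cdk6+/+ tumours. The high sum of tumour 4, the highest tumour for Ackr3, was mostly Igf2, a growth factor gene, with 611 CPM there. The other 6 markers summed to 125, 214, 101, 82.2, 132 and 59.4 CPM in Cdk6-/- tumours 1 to 6, against 97.1, 114 and 109 CPM in Cdk6+/+ tumours. Without Igf2, tumour 4 was thus the second lowest of the Cdk6-/- tumours, and tumour 6, the lowest for Ackr3, was the lowest. Endothelial markers ranged from 51.6 to 229 CPM in Cdk6-/- and from 59.1 to 100.3 CPM in Cdk6+/+ tumours, highest in tumour 5. Mural cell markers ranged from 115 to 253 CPM in Cdk6-/- and from 86.5 to 152 CPM in Cdk6+/+ tumours. None of the 7 meningeal, 7 endothelial or 6 mural markers was called between the groups or was at 0 in every library, and their part in the Ackr3 and Cxcl12 levels was not tested.

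**Figure D3:**
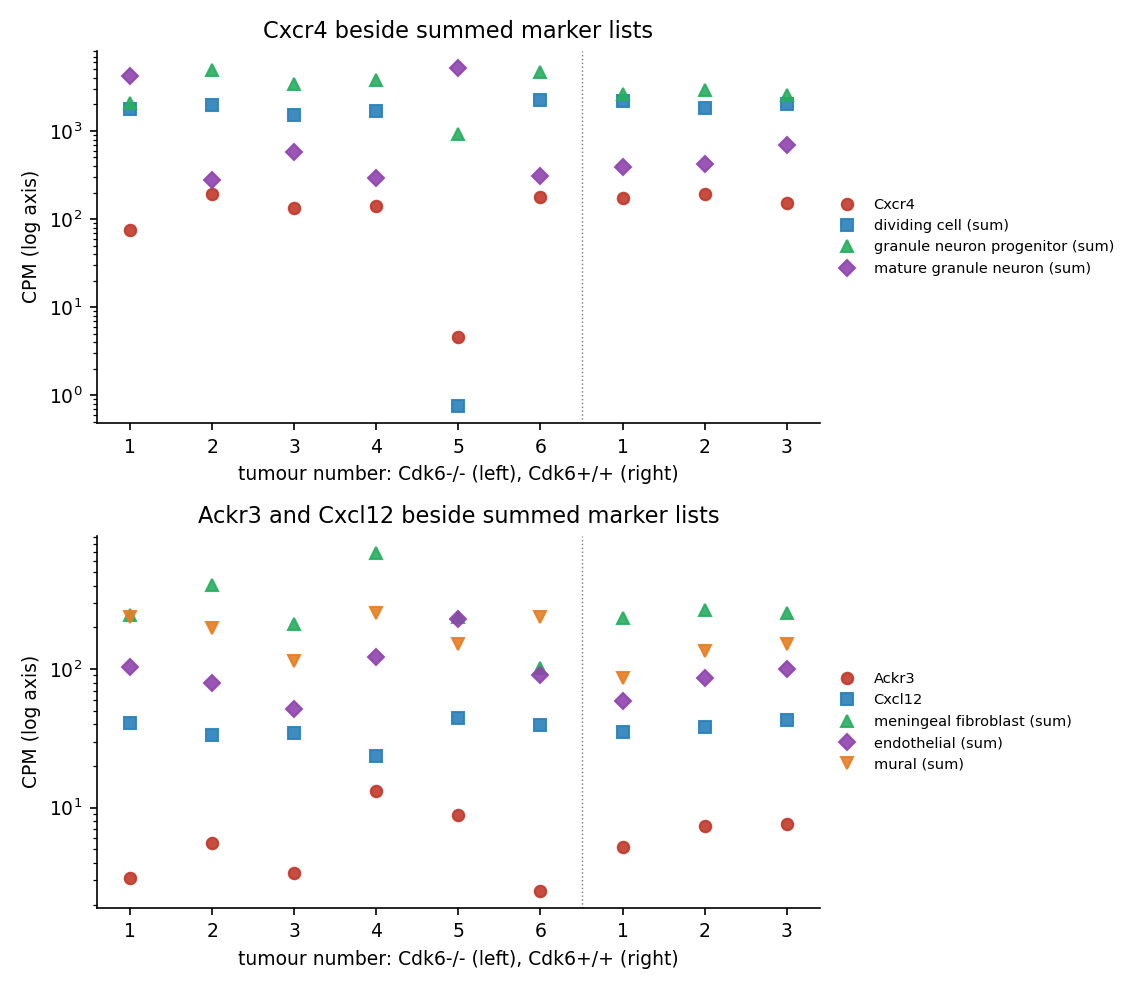
CPM (log axis) by tumour, with Cdk6-/- tumours 1 to 6 on the left and Cdk6+/+ tumours 1 to 3 on the right of each panel. The upper panel sets Cxcr4 beside summed markers of dividing cells, granule neuron progenitors and mature granule neurons, and the lower panel sets Ackr3 and Cxcl12 beside summed markers of meningeal fibroblasts, endothelium and mural cells. Cxcr4 (4.60 CPM) and the dividing cell sum (0.752 CPM) are both lowest in Cdk6-/- tumour 5, and Ackr3 (13.2 CPM) is highest in tumour 4, where 611 of the 694 CPM of the meningeal sum are Igf2.

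Likeness to other genes was measured as the root mean square (RMS) difference of log2 CPM, centred per gene, over the 9 tumours, among 13220 genes that averaged 1 CPM or more. The 5 genes most like Cxcr4 were Nsl1 (0.183), Ccnb2 (0.198), Panx1 (0.200), Mcm3 (0.214) and Aunip (0.218), where Cxcr4 itself had an RMS of 1.62 about its mean. Nsl1 encodes a kinetochore subunit, Ccnb2 a mitotic cyclin, Panx1 a membrane channel, Mcm3 a subunit of the replicative helicase and Aunip a partner of Aurora A kinase. Mcm3, for one, had 74.1, 175, 107, 116, 3.14 and 194 CPM in Cdk6-/- tumours, against 189, 186 and 155 CPM in Cdk6+/+ tumours. This likeness leaned on tumours 1 and 5: over the other 7 tumours the 5 genes ranked 1202, 796, 149, 621 and 605.

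The genes most like Ackr3 were Pdgfrl (0.195), Pcdhgb5 (0.321), Eya1 (0.336), Yap1 (0.367) and Cpt1a (0.374), where Ackr3 had an RMS of 0.731. Pdgfrl, a secreted protein related to the PDGF receptors, had 2.30, 3.21, 2.64, 8.58, 5.79 and 2.06 CPM in Cdk6-/- tumours, against 4.68, 5.17 and 4.74 CPM in Cdk6+/+ tumours. Over the 7 tumours without 1 and 5 Pdgfrl was again first, and the other 4 ranked 9, 12, 34 and 11. The genes most like Cxcl12 were Cpox, Abcb10, Dtd1, Pccb and Mtif3, with differences of 0.122 to 0.145, but the RMS of Cxcl12 about its own mean was 0.258, so a nearly flat gene was matched with other nearly flat genes. Cpox makes a haem precursor and Abcb10 is a mitochondrial transporter. These points share libraries and depth, and the likeness is a description.

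Around the 3 genes, 69 other genes of the pathway in 4 lists were looked up, and 62 were tested. None was called over all 9 tumours by edgeR's quasi-likelihood test, where 5.19% of all genes were. At an unadjusted p under 0.05 there were 11 of the 62 (17.7%), where 19.3% of all tested genes were. In 7 of the 62 (11.3%) the groups did not overlap, 6 with every Cdk6-/- tumour lower and 1 with every Cdk6-/- tumour higher. Of all tested genes the groups did not overlap in 15.5%, and every Cdk6-/- tumour was lower in 7.98%. All 3 shares lay near or under those of the whole table. Without tumours 1 and 5, 7 of 63 list genes (11.1%) were called, 1 higher and 6 lower, where 14.3% of all tested genes were.

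Of the genes for partners of the ligand and for proteases that cut it, 13 of 14 were tested, 0 were called and 7 had a positive log2 fold change, with a median of 0.32 where that of all genes was 0.16. The medians without tumours 1 and 5 were 0.095 for the list and 0.044 for all genes. Hmgb1, a nuclear protein that binds Cxcl12 once it is outside the cell, had 173, 210, 138, 148, 43.7 and 179 CPM in Cdk6-/- tumours, against 399, 328 and 426 CPM in Cdk6+/+ tumours. Every Cdk6-/- tumour lay below every Cdk6+/+ tumour, with a log2 fold change of -1.37 (edgeR adjusted p = 0.0745), and without tumours 1 and 5 it was -1.19 (adjusted p = 0.00576). Leaving out tumour 5 alone gave an edgeR adjusted p of 0.00760. Of the 50-base windows of Hmgb1, 22.7% also occurred in other genes, most often in Gm21596, so its count is uncertain. The next smallest p-values in this list were those of the protease Mmp9 (log2 fold change 1.08, edgeR adjusted p = 0.258), the chemokine scavenger Gpr182 (0.93, adjusted p = 0.302) and the protease Dpp4 (-0.83, adjusted p = 0.348). Mmp2, a protease that inactivates Cxcl12, was called without tumours 1 and 5 (log2 fold change 1.22, edgeR adjusted p = 0.0285). It had 15.5, 38.6, 19.2, 20.8, 1.37 and 40.4 CPM in Cdk6-/- tumours, against 12.8, 13.2 and 12.1 CPM in Cdk6+/+ tumours.

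Of the 16 genes that switch off, sort or desensitise the receptors, 0 were called and 12 had a positive log2 fold change, with a median of 0.26. The 4 with the smallest p-values were Adrbk2 (the receptor kinase Grk3, log2 fold change 0.77, edgeR adjusted p = 0.240), Stambp (a deubiquitinase of the endosome, 0.66, adjusted p = 0.345), Adrbk1 (Grk2, 0.56, adjusted p = 0.404) and Arrb2 (a beta-arrestin, 0.58, adjusted p = 0.462). Arrb2 had 43.6, 60.8, 120, 127, 43.4 and 87.1 CPM in Cdk6-/- tumours, against 56.5, 56.9 and 47.9 CPM in Cdk6+/+ tumours. Tumours 1 and 5, the lowest for Cxcr4, were also the lowest for Arrb2. Without these tumours the median of the list was -0.18. The 1 gene called was Rgs4, which speeds the switching off of inhibitory G proteins (-1.47, edgeR adjusted p = 0.0343). Over all 9 tumours its log2 fold change was -0.48 (edgeR adjusted p = 0.739). Rgs4 had 15.6, 8.70, 5.73, 4.78, 29.3 and 3.32 CPM in Cdk6-/- tumours, against 14.4, 9.64 and 23.0 CPM in Cdk6+/+ tumours. Tumours 1 and 5 were its highest Cdk6-/- tumours, so leaving them out lowers that side.

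Of the 20 genes that carry the Cxcr4 signal into the cell, 0 were called and 11 had a positive log2 fold change, with a median of 0.03. Pik3cg, the lipid kinase subunit that G proteins activate in blood cells, had 2.83, 3.72, 1.93, 1.77, 3.49 and 3.54 CPM in Cdk6-/- tumours, against 7.29, 5.37 and 7.05 CPM in Cdk6+/+ tumours. The groups did not overlap, with a log2 fold change of -1.19 (edgeR adjusted p = 0.0835), and it was called without tumours 1 and 5 (-1.26, adjusted p = 0.0424). Rac1, the GTPase of the moving cell edge, had 265, 296, 153, 189, 206 and 253 CPM in Cdk6-/- tumours, against 422, 358 and 394 CPM in Cdk6+/+ tumours. Its log2 fold change was -0.79 (edgeR adjusted p = 0.116), and without tumours 1 and 5 it was -0.81 (adjusted p = 0.0467). Of its 50-base windows 50.3% also occurred in transcripts of Daglb, so the count of Rac1 is uncertain. Pxn, a focal adhesion protein, followed (log2 fold change 0.85, edgeR adjusted p = 0.179). Gnaz, an inhibitory G protein subunit, was the 1 list gene with every Cdk6-/- tumour higher (0.74, edgeR adjusted p = 0.248). Gnai1, another such subunit, had 303 CPM in tumour 5 and 16.2 to 44.5 CPM in the other Cdk6-/- tumours, against 59.7 to 98.7 CPM in Cdk6+/+ tumours, and was called lower without tumours 1 and 5 (-1.38, edgeR adjusted p = 0.0162). Without these tumours the median of the list was -0.15. Mmp2, Rgs4 and Gnai1 were picked for naming after their values were seen.

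Of 19 other CXC and CX3C chemokines and receptors, 13 were tested, 0 were called and 9 had a positive log2 fold change, with a median of 0.27, and of 0.44 without tumours 1 and 5. Cx3cr1, the fractalkine receptor of microglia, had 38.7, 51.1, 39.0, 34.8, 14.8 and 30.2 CPM in Cdk6-/- tumours, against 74.4, 67.0 and 77.9 CPM in Cdk6+/+ tumours. The groups did not overlap, with a log2 fold change of -1.07 (edgeR adjusted p = 0.0898), and it was called without tumours 1 and 5 (-0.91, adjusted p = 0.0184) and without tumour 5 alone (adjusted p = 0.0233). Cxcl5, a neutrophil attractant (log2 fold change -1.61, edgeR adjusted p = 0.123), and Cxcl10, an interferon-induced chemokine (-1.48, adjusted p = 0.160), had negative values. Ackr1, a chemokine scavenger of red cells and venules, had a positive one (1.10, edgeR adjusted p = 0.149), and 20.4% of its 50-base windows also occurred in Cadm3.

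The 7 microglial markers summed to 97.9 to 380 CPM in Cdk6-/- and 354 to 431 CPM in Cdk6+/+ tumours, and Csf1r (log2 fold change -1.23, edgeR adjusted p = 0.0125) and P2ry12 (-1.62, adjusted p = 0.00964) fell. The other 5 did not pass the test (C1qa -0.21, edgeR adjusted p = 0.867), and C1qa was at 0.21 without tumours 1 and 5. The sum and Cx3cr1 parted in tumour 1, with a sum of 107 CPM and a Cx3cr1 level of 38.7 CPM, and tumour 4, with 380 and 34.8 CPM. The call of Csf1r was lost without any 1 of the Cdk6+/+ tumours (edgeR adjusted p of 0.0792, 0.0649 and 0.0573 without tumours 1, 2 and 3). That of P2ry12 was lost without Cdk6+/+ tumour 1 (0.0673) or 3 (0.0700). Both calls were also lost with Y-linked expression as covariate (edgeR adjusted p = 0.0771 for Csf1r and 0.102 for P2ry12) and with a replicate block over tumours 1 to 3 (0.0582 and 0.0859). Of the 50-base windows of Csf1r 14.3% also occurred in Hmgxb3, so its count is uncertain. The part of microglia in the levels of Cx3cr1 and Pik3cg was not tested. Of the 5 red cell markers 3 fell (Hbb-bt, Hbb-bs and Alas2), where 2.43% of all tested genes were called lower. Of the 50-base windows of Hbb-bs 53.2% also occurred in Hbb-bt, and 58.3% of those of Hbb-bt in Hbb-bs. Their separate counts are therefore uncertain, as is that of Alas2, with 11.5% of its windows in other genes. The sum of the list was 0.535 to 8.0 CPM in Cdk6-/- and 65.9 to 111 CPM in Cdk6+/+ tumours. Alas2 lost its call under 11 of 20 alternatives. Among them were leaving out Cdk6-/- tumour 2, 3 or 6 or any Cdk6+/+ tumour (edgeR adjusted p up to 0.196) and the Y-linked covariate (0.0905). The others were raw library totals, at least 1 CPM in 3 libraries, thinning to the smallest library, and tumours 1 to 3 of both groups without a block. Hopx, of the astrocyte list, fell too (-1.40, edgeR adjusted p = 0.0361), a call kept when tumour 5 was left out. Hopx lost this call without any other 1 tumour (adjusted p up to 0.178), with the Y-linked covariate (0.126) and with at least 1 CPM in 3 libraries. Of its 50-base windows 23.99% also occurred in Hopxos, so its count is uncertain. No marker was called in the oligodendrocyte, Purkinje, lymphocyte, progenitor, dividing cell or mature granule neuron lists over all 9 tumours. Without tumours 1 and 5 the edgeR test called 4 of 7 astrocyte, 3 of 6 oligodendrocyte and 3 of 5 Purkinje markers lower. It also called 1 of 5 dividing cell and 2 of 6 mature granule neuron markers lower, where 6.14% of all tested genes were. Tumour 5 had the highest astrocyte, oligodendrocyte, Purkinje and mature granule neuron sums of the Cdk6-/- tumours, so leaving it out lowers that side.

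**Figure D4:**
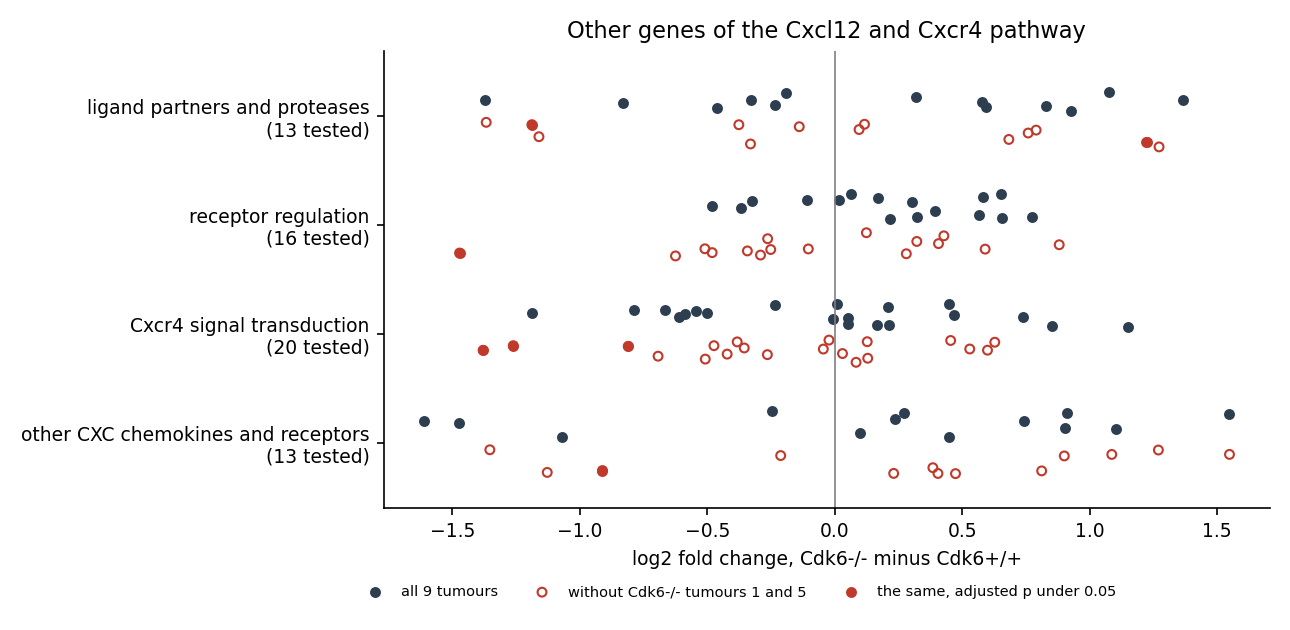
Log2 fold change, Cdk6-/- minus Cdk6+/+, of every tested gene of 4 pathway lists. Filled dark points are over all 9 tumours, open red points are without Cdk6-/- tumours 1 and 5, and filled red points are those of the open series at an adjusted p under 0.05 (edgeR). No dark point passed the test, and the 7 filled red points are Mmp2 on the right and Hmgb1, Rgs4, Gnai1, Pik3cg, Rac1 and Cx3cr1 on the left.

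The authors' deposited table of their own comparison holds 761 genes, the largest adjusted p in it being 0.0499. None of the 3 genes and none of the 69 pathway genes is among them.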

How the data were processed

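Total RNA of 9 flash-frozen tumours was extracted with Trizol and made into Illumina TruSeq libraries, per the labels' protocols. FastQC, Trimmomatic, HISAT2, DESeq2 and the build GRCm38.p6 are named without versions per the submitters' processing notes. The sources used here do not give the counting tool or its strand setting. Unnormalized counts per gene were deposited by the authors, and so was a DESeq2 table with log2 fold changes, p-values and adjusted p-values, which was used here only to look up genes. A score column of the authors' deposited table was not used.

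Genes were kept with filterByExpr (18356 of 47593), scaled by TMM and tested in edgeR 4.0.16 (R 4.3.3) with the robust quasi-likelihood F test, two-sided, genotype only, Benjamini-Hochberg threshold 0.05. CPM are per 1e6 counts of the scaled library. Levels between genes were divided by the deposited exon length. Log2 CPM used a prior count of 2, and ratios added 0.5 counts. Ratios were tested by exact permutation (scipy 1.17.1). Common biological variation (BCV) was 0.542 over all 9 tumours and 0.348 without Cdk6-/- tumours 1 and 5.

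The 3 genes, the 4 pathway lists and the 12 cell type marker lists were chosen with earlier results of these data known. Named were, from each pathway list, genes past the test or else the 4 smallest p-values, and, for each of the 3 genes, the 5 most alike, passing over predicted genes, clone names and pseudogenes. Alternatives were DESeq2 1.42.0, limma-voom (limma 3.58.1), other size factors, other filters, thinning to the smallest library, a covariate for Y-linked expression, a replicate block, and leaving out tumours. Exact binomial intervals (95%) cover counting error only.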

Additional observations from a re-analysis of the deposited data

Results flagged for a closer look

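In 6 of 20 sets of 6 Cdk6-/- values, 1 tumour lay far from the others by Dixon's criterion, which chance alone meets in about 1 in 20 sets. It was tumour 5 each time. The log2 CPM of Cxcr4 was 2.22 in tumour 5, the lowest of 6. The log2 ratio of Cxcr4 to Cxcl12 was -1.09 there, also the lowest. As CPM without the log, Cxcr4 was looked at too and was not flagged. Both flags rest on the same Cxcr4 count of tumour 5. The summed markers of dividing cells were lowest there, at 0.752 CPM. Those of astrocytes and Bergmann glia (5653 CPM), oligodendrocytes (3446 CPM) and Purkinje cells (8379 CPM) were highest there. These sets share 1 library, and the cause was not tested.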

How the results depend on the processing

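The 3 log2 fold changes were recomputed under 20 alternatives each, and 0 of the 60 values passed the test. Cxcl12 turned to 0.059 with Y-linked expression as covariate, and ranged from -0.19 to -0.00035 leaving out 1 tumour at a time. Cxcr4 kept its sign throughout, between -1.13 (limma-voom) and -0.10 (without tumours 1 and 5), and leaving out 1 tumour gave -0.72 to -0.26. Ackr3 turned to 0.015 without Cdk6-/- tumour 6, the top of a leave-one-out range of -0.51 to 0.015, and was -1.32 with the Y-linked covariate (edgeR adjusted p = 0.405). The Cxcr4 to Cxcl12 ratio difference turned to 0.15 without tumours 1 and 5, and Gpr182 turned to -0.012 with the Y-linked covariate. The cause of these turns was not tested. The number of genes called (953) was 2309 with DESeq2, 2643 without tumours 1 and 5, 84 with the Y-linked covariate and 563 with at least 1 CPM in 3 libraries, and ran from 207 (without Cdk6+/+ tumour 3) to 1506 (without Cdk6-/- tumour 5) leaving out 1 tumour. DESeq2 called 1, 0, 2 and 2 genes of the 4 pathway lists, in the order of the text, out of 13, 16, 20 and 13 tested. All of them were lower in Cdk6-/- tumours. Of all 18356 tested genes DESeq2 called 2309, with 832 lower. Of 440 values of 22 other named genes, 12 came past the test and 30 fell short of it where the value of the text did the opposite.

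Deviations from the group means had correlations of 0.05, -0.18 and -0.25 between tumours of the same number, 1 to 3. Pairs of unlike number ran from -0.33 (Cdk6-/- 4 with Cdk6+/+ 3) to 0.26 (Cdk6-/- 4 with Cdk6+/+ 2). Such values cannot tell whether tumours 1 to 3 of both groups share more than a number. With a replicate block over these 6 tumours the log2 fold changes were -0.08 for Cxcl12, -0.45 for Cxcr4 and -0.75 for Ackr3, with 753 genes called. Without the block, a fit added after seeing the data, they were -0.08, -0.35 and -0.72, with 985 called. Thinning every library to the smallest left the SE of Ackr3 at 0.545, against 0.537 at full depth.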

Other observations

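Penk, the precursor of enkephalin peptides that Ackr3 also binds and clears, had 0.107, 4.42, 11.1, 1.94, 161 and 0.0897 CPM in Cdk6-/- tumours 1 to 6, against 10.7, 7.95 and 15.9 CPM in Cdk6+/+ tumours. Tumour 5, second for Ackr3 among Cdk6-/- tumours, was the highest of all 9. Arrb1, a beta-arrestin, had 393 CPM in tumour 5 and 73.3 to 93.4 CPM in the other Cdk6-/- tumours, against 69.3 to 101 CPM in Cdk6+/+ tumours. Neither gene passed the test (edgeR adjusted p = 0.738 for Penk and 0.588 for Arrb1), and both were picked after their values were seen.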
